A study of Vitis vinifera with 2 samples.

Results

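Intergenic VlbZIP30 peaks 1 to 3 kb upstream of the nearest grapevine gene were examined as a belt with borders set by class and distance. They were taken from the peak list of a chromatin immunoprecipitation sequencing (ChIP-seq) experiment as the rows of the class Intergenic whose centre lay from 3000 bp to 1 bp upstream of the nearest transcription start site (TSS). This gave 5624 of the 49173 peaks, or 11.4% of the list (95% Wilson interval 11.2 to 11.7%), and 35.2% of the 15989 intergenic peaks. The rule used the class and the distance; scores and lengths played no part in it. No member lay within 1 kb of the TSS, because the authors' promoter class took every upstream peak there. The members ran from 1001 to 3000 bp and are called near-upstream intergenic peaks below.

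The experiment used Vitis vinifera plants aged 4 months that overexpressed VlbZIP30 fused to 3 copies of the FLAG tag under the CaMV35S promoter, a viral promoter active in most plant tissues, so the tagged protein was not expressed under its own control. Water was withheld for 20 days and the top leaves were harvested. There was 1 library precipitated with anti-FLAG M2 antibody and 1 control library, which its title calls input and its antibody label calls IgG. Both came from the transgenic, drought-stressed plants, and no library from untagged or watered plants was analysed here. The 1 list contrasts the 2 libraries, so replicate error could not be estimated and conditions could not be tested against each other. Intervals below cover counting error over peaks, which are not independent replicates, and describe this list only.

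VlbZIP30 is a basic leucine zipper (bZIP) transcription factor, a protein that binds DNA as a dimer through a basic region next to a coiled leucine zipper. Plant bZIP factors of the abscisic acid pathway recognise short elements with an ACGT core, such as the abscisic acid response element and the G-box, and abscisic acid is the main hormone of the leaf response to drought. Such elements are best known from promoters close to the gene start, while sites farther upstream can also act on transcription as enhancers do. No genome sequence of the build behind the list was used here, so the bases under the peaks are not shown. The gene identifiers of the list were not paired with names by the sources used here (0 of the 5004 nearest genes matched the gene table), so genes are given by position.

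Most peaks centred in this belt were intergenic, and their count fell with distance. Of all 7431 peaks centred 1 to 3 kb upstream of a TSS, 75.7% (95% interval 74.7 to 76.6%) were intergenic. The other 1807 carried a transcription termination site (833 TTS peaks), exon (552) or intron (422) annotation. In 1807 of 1807 cases the annotation named another gene than the nearest. A centre upstream of a gene's TSS lies outside that gene, so this count follows from the definitions. On the gene side, from 1 to 3 kb downstream of the TSS, 711 of 7706 peaks were intergenic, or 9.23% (8.60 to 9.89%); gene bodies fill much of that stretch.

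The count of near-upstream intergenic peaks fell from 889 in the 250 bp next to the promoter border to 489 in the last 250 bp before 3000 bp, a ratio of 1.82. The intergenic share of all upstream peaks was 75.1% (72.6 to 77.5%) in the first of these bins and 76.4% (73.0 to 79.5%) in the last. The total number of peaks went from 1183 to 640 between these bins, TTS peaks from 176 to 67 and intron peaks from 42 to 39. Stretches of intergenic DNA that reach 3 kb are fewer than those that reach 1 kb, and their lengths were not used, so the counts are not densities per available base. The far border was set by the rule, and the next 250 bp beyond it held 467 intergenic peaks.

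**Figure D1:**
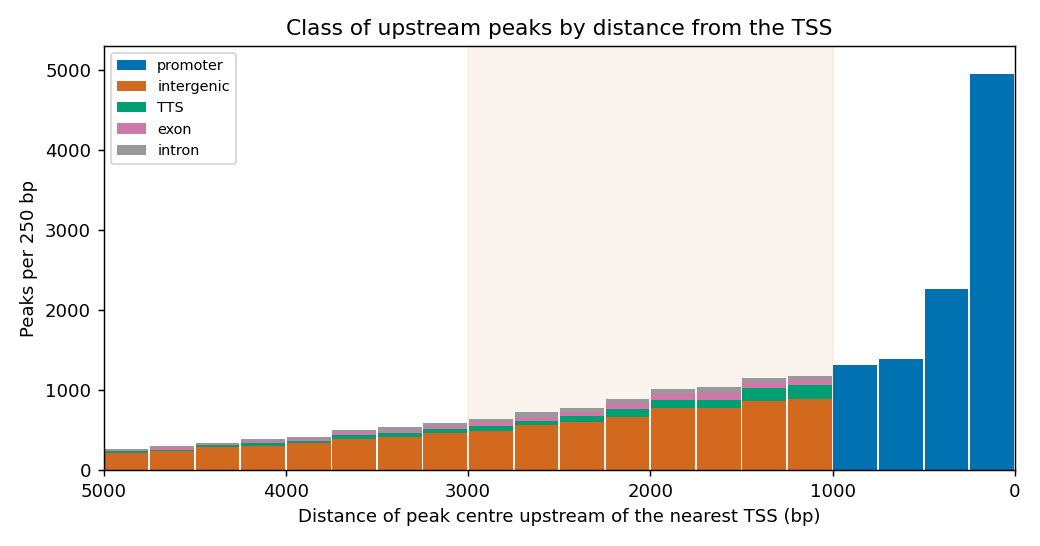
Number of upstream peaks per 250 bp (vertical axis) by the distance of the peak centre from the nearest TSS in bp (horizontal axis), stacked by the authors' class; the shaded band marks 1 to 3 kb. Intergenic peaks begin where the promoter class ends, at 889 peaks per 250 bp, and decline to 489 at the far border of the band.

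At the borders of the rule, values on both sides were mixed. The 3 members at 3000 bp scored 5.90, 26.96 and 9.26, and the 2 intergenic peaks 1 bp farther out scored 68.8 and 21.9. At the promoter side, the 1 member at 1001 bp scored 1.75 and the 2 at 1002 bp scored 13.3 and 45.4. The 8 promoter peaks at 1000 bp scored from 2.09 to 72.3.

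The score that the authors gave to each peak has no named scale, so it was used to order this list and to set group medians side by side, and no fold of it was taken. Near-upstream intergenic peaks ranked above the list as a whole. Their median score was 11.1 (95% binomial interval 10.5 to 11.7; quartiles 4.996 and 23.8; range 1.32 to 168), against 7.02 (7.02 to 7.21) for the 43549 other peaks. Of the members, 32.7% (31.5 to 34.0%) were in the highest of 4 score groups cut at the quartiles of the list and 16.4% (15.5 to 17.4%) in the lowest. For all peaks these shares were 24.9% and 26.6%. Near-upstream intergenic peaks accordingly made up 7.05% (6.62 to 7.50%) of the lowest score group, 10.3% of the second, 13.7% of the third and 15.0% (14.4 to 15.7%) of the highest. That share was higher in each group than in the one below it.

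The members scored above peaks at the same distance that were annotated to another gene. TTS, exon and intron peaks 1 to 3 kb upstream had a joint median score of 4.53 (4.08 to 4.53, n = 1807), so intergenic peaks exceeded them by 6.54. Bounds built from the interval ends of the 2 medians were 5.93 and 7.62. The excess was 6.52 when peaks were compared within 10 strata of length, and it had this direction on 19 of 19 numbered chromosomes. By class, the medians at this distance were 6.49 for TTS peaks (5.95 to 7.02), 3.64 for exon peaks (3.64 to 4.08) and 3.22 for intron peaks (3.22 to 3.64). All 4 classes covered the same range of distances, and the exon and intron medians were the lowest. Intergenic peaks 1 to 3 kb on the gene side had a median of 7.56 (6.89 to 8.68, n = 711), below that of their upstream counterparts.

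**Figure D2:**
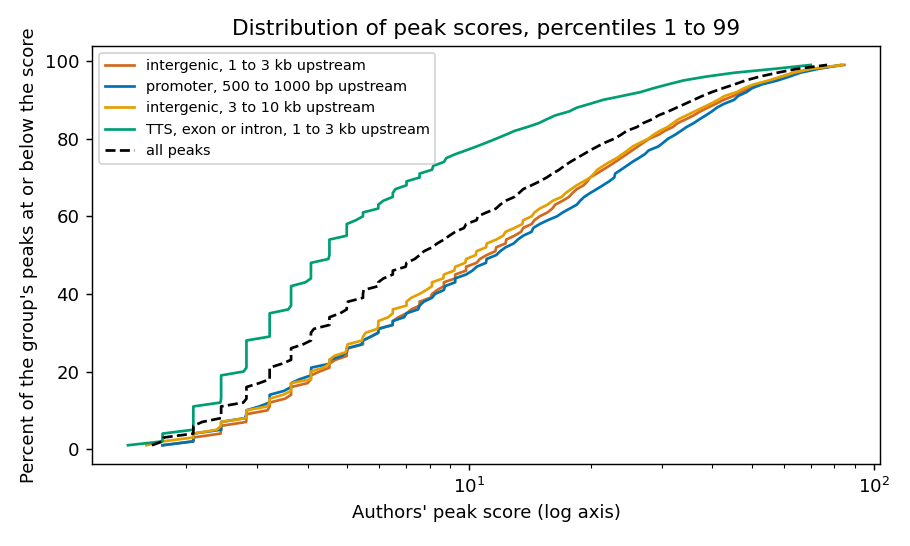
Percent of peaks at or below a score (vertical axis) against the authors' peak score on a log axis, for percentiles 1 to 99 of 5 groups of peaks. The curve of intergenic peaks 1 to 3 kb upstream runs close to those of outer promoter peaks and of intergenic peaks 3 to 10 kb upstream, while TTS, exon and intron peaks 1 to 3 kb upstream lie to the left, with a median of 4.53 against 11.1.

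Against their neighbours on either side, near-upstream intergenic peaks stood out little. Promoter peaks 500 to 1000 bp upstream had a median score of 11.7 (11.1 to 12.3, n = 2707), so the members were lower by a difference of -0.62, with bounds of -1.87 and 0.62 that include no difference. The members were higher on 8 and lower on 10 of 19 numbered chromosomes. The outer promoter peaks were longer, with a median of 653 bp against 521.5 bp, and within strata of length the sign turned, with members higher by 2.49. Intergenic peaks 3 to 10 kb upstream had a median score of 10.4 (9.85 to 10.7, n = 4913). The members exceeded them by 0.67, with bounds of -0.20 and 1.84, on 13 of 19 numbered chromosomes, and by -0.02 within strata of length. Both pairs of bounds include 0, which leaves the direction of either difference unsettled in this list.

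Within the belt the score changed little with distance. Medians over the 8 bins of 250 bp ran from 10.1 (9.26 to 12.4, 2750 to 3000 bp) to 12.1 (11.0 to 13.5, 1250 to 1500 bp), and the intervals of these bins overlapped. The 1752 members in the nearest 500 bp had a median of 11.7 and the 1050 in the farthest 500 bp one of 10.2, a difference of 1.51 with bounds of -0.66 and 3.50. Across members, Spearman's rho of score with distance was -0.02 and that of length with distance -0.01; peaks are not independent, and these values are descriptions. Promoter medians changed more over a shorter stretch, from 14.8 at 250 to 500 bp to 9.85 at 750 to 1000 bp.

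**Figure D3:**
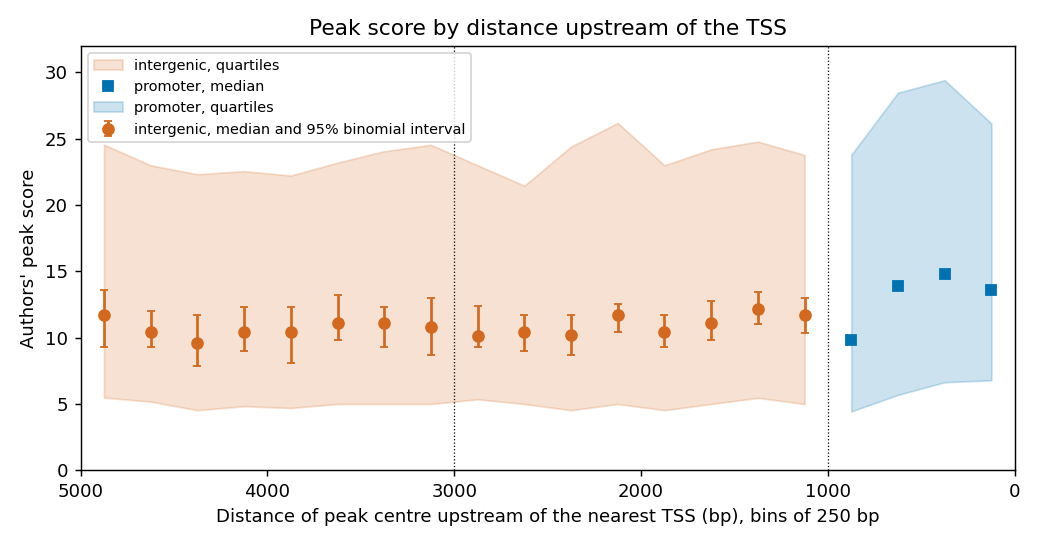
Median authors' peak score (vertical axis) in bins of 250 bp by distance upstream of the TSS in bp (horizontal axis), for intergenic peaks (circles, bars are 95% binomial intervals of the median) and promoter peaks (squares); bands show quartiles and dotted lines mark 1 and 3 kb. Intergenic medians stay between 10.1 and 12.1 from 1 to 3 kb, and the promoter medians fall to 9.85 at the promoter border.

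Length separated the members far more than distance did. Their median length was 521.5 bp (quartiles 341 and 863 bp, range 196 to 10756 bp), and Spearman's rho of score with length was 0.667. The 1039 members under 300 bp had a median score of 4.08 (3.64 to 4.08), and the 1631 from 300 to 500 bp had 7.56 (7.42 to 8.12). The 1827 from 500 to 1000 bp, the most common length, had a median of 15.8 (15.0 to 17.0), against 10.5 for other peaks of that length. Medians were 26.1 (24.6 to 27.4) for the 935 from 1000 to 3000 bp and 41.7 (38.0 to 45.9) for the 192 of 3 kb or more. In each of these 5 length classes the median of the members was above that of the other peaks in the list. For those it was 3.22, 4.996, 10.5, 21.3 and 37.8 from the shortest to the longest class. This did not set the members apart from intergenic peaks 3 to 10 kb upstream. From these they differed by -0.02 within strata of length.

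Some near-upstream intergenic peaks extended into the promoter that their centre missed. The near edge lay within 1 kb of the TSS in 22.4% of the members (95% interval 21.3 to 23.5%, 1260 peaks). In 225 of these, or 4.00% of all members (3.52 to 4.55%), the peak reached the TSS itself. These 225 had a median score of 38.0 (36.3 to 41.7) and a median length of 3568 bp. The 1035 that entered the promoter stretch without reaching the TSS had a median score of 16.4 (15.5 to 17.8) and a median length of 765 bp. The 4364 that stayed outside had a median score of 9.26 (8.74 to 9.85) and a median length of 469.5 bp. The excess of the 1035 over those that stayed outside was 7.14 (bounds 5.60 and 9.03) and fell to 1.29 within strata of length. Reaching the TSS itself needs a long peak, so for the 225 reach and length cannot be told apart.

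Gaps from the members to other peaks were near those of the whole list, apart from fewer long gaps. The median gap to the nearest peak of any class was 651 bp (quartiles 361 and 1167 bp). For all peaks it was 711 bp (quartiles 357 and 1798 bp), for outer promoter peaks 523 bp and for intergenic peaks 3 to 10 kb upstream 804 bp. A gap under 500 bp was found for 38.6% of the members and 37.4% of all peaks. A gap under 1 kb was found for 69.4% of the members, 68.7% of outer promoter peaks, 57.9% of intergenic peaks 3 to 10 kb upstream and 61.2% of all peaks. The smallest gap in the list was 197 bp and the shortest peak was 196 bp.

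Many genes in the list had at least 1 near-upstream intergenic peak: 5004 of 20152 genes, or 24.8% (95% interval 24.2 to 25.4%). Of these, 54.3% (53.0 to 55.7%, 2719 genes) also had a promoter peak nearest to their TSS. Among the 15148 listed genes without a member, 60.8% (60.1 to 61.6%) had one; a gene enters the list only through a peak, so a gene without a member must have a peak elsewhere, which raises that share. A further 979 genes had no promoter peak but a peak of another class over the TSS, which was the member itself at 225 of them and only another peak at 754. Neither a promoter peak nor a peak over the TSS was listed for 1306 genes, or 26.1% (24.9 to 27.3%). The near-upstream peak was the only peak of its gene at 531 genes, or 10.6% (9.79 to 11.5%). Of the listed genes without a member, 44.7% (43.9 to 45.5%) had a single peak. A gene with more peaks has more chances to hold a member, which lowers the members' share by construction. For the 3330 genes with an intergenic peak 3 to 10 kb upstream, the share with a promoter peak was 54.7% (53.0 to 56.4%). The share with neither a promoter peak nor a peak over the TSS was 29.2% (27.6 to 30.7%), and that with no other peak 10.3% (9.34 to 11.4%).

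Members at genes without a promoter peak had a median score of 11.7 (11.1 to 12.4, n = 2554), against 10.5 (9.85 to 11.1, n = 3070) at genes with one. The difference was 1.24, with bounds of 0 and 2.53, and 0.51 within strata of length. Long members rarely had a promoter peak beside them: of the 192 of 3 kb or more, 7.29% were at genes with a promoter peak, while the share was 57.7 to 58.2% in the 3 length classes under 1000 bp. A peak that covers both stretches is listed once, under the class of its centre. The 1455 members at genes with neither a promoter peak nor a peak over the TSS had a median score of 9.26 (8.68 to 10.5), and the 531 that were their gene's only peak had 9.21 (7.89 to 10.5).

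Where a gene had both, the promoter peak scored higher more often, but not by a wide margin. Of 2719 genes, the promoter peak was higher at 1518, or 55.8% (54.0 to 57.7%), the near-upstream peak at 1183, or 43.5% (41.7 to 45.4%), and the scores were equal at 18. The highest scores per gene had medians of 15.0 for promoter peaks and 11.7 for near-upstream peaks, with median lengths of 711 and 526 bp. The near-upstream score minus the promoter score had a median of -1.73 (quartiles -14.6 and 8.41). Both peaks were in the highest score group of the list at 403 genes, only the near-upstream peak at 506, only the promoter peak at 715 and neither at 1095. Spearman's rho between the 2 scores was 0.0956 across these genes, which are not independent replicates. The 2 scores were thus only weakly related.

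**Figure D4:**
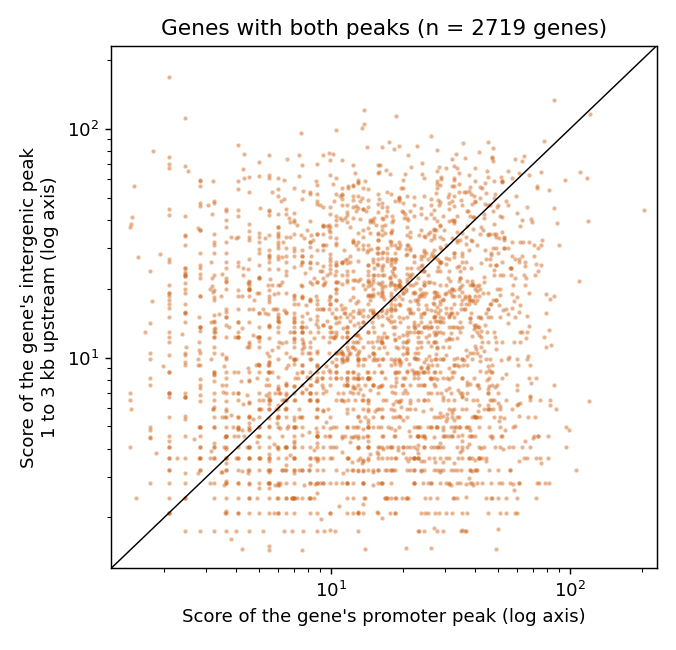
Score of the highest near-upstream intergenic peak (vertical, log axis) against the score of the highest promoter peak of the same gene (horizontal, log axis), 1 point per gene for 2719 genes; the line marks equal scores. The points spread widely on both sides of the line, with 1518 genes below it and 1183 above.

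Counted over all peaks of a gene, the near-upstream peak was the highest-scoring one at 2316 of the 5004 genes, or 46.3% (44.9 to 47.7%). Among the 4473 genes with more than 1 peak it was the highest at 1785, or 39.9% (38.5 to 41.3%). This share depends on how many peaks each gene has. No matching share was computed for other groups of peaks, so it cannot be called high or low. At the other genes the highest peak was a promoter peak at 1180, another intergenic peak at 719, an exon peak at 308, a TTS peak at 267 and an intron peak at 214.

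Of the 10 highest-scoring near-upstream peaks, 6 were at a gene with a promoter peak, and 5 of these scored above it. The top member, with a score of 168, ranked 5 in the whole list and spanned 1580 bp on chromosome 4 (8790165 to 8791744). Its centre lay 2521 bp upstream of the minus-strand TSS of VIT_04s0069g00750 at 8788433, whose own promoter peak scored 2.09. The gene had 5 peaks, and the highest of the others scored 43.6. The second, also on chromosome 4 (10883029 to 10883915), scored 133 and lay 1418 bp upstream of the plus-strand TSS of VIT_04s0079g00410, whose promoter peak scored 85.7.

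The third, on chromosome 15 (18424609 to 18426440), scored 127 at 2062 bp from a TSS without a promoter peak, although another peak of that gene scored 112.6. The fourth, on chromosome 4 (538100 to 539012), scored 121 against 13.7 for the promoter peak, and its centre lay between 2 divergent TSSs, 1908 bp from one and 2438 bp from the other. The fifth lay on chromosome 9 (886901 to 888299) with a score of 116 and no promoter peak at its gene. The sixth, on chromosome 6 (6315177 to 6317085, score 115.7), was the only one of the first 10 whose promoter peak scored higher, at 121.7. The seventh, on chromosome 18 (11858654 to 11860713), scored 114 against 18.6 for the promoter peak.

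The eighth and ninth shared a score of 112.6 and were unlike the others in reaching the TSS: one on chromosome 5 (3612714 to 3616077, 3364 bp long) and one on the sequence named Un (7412961 to 7416170, 3210 bp long), which was the only peak of its gene. The tenth, on chromosome 6 (5080572 to 5082154), scored 111 at 2972 bp from the TSS, while the promoter peak of that gene scored 2.45. Of these 10 peaks 3 lay on chromosome 4, which held 300 of the 5624 members, and clustering was not tested.

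The longest members were broad domains with their centre upstream and not the highest-scoring ones. The longest, 10756 bp on chromosome 8 (17724771 to 17735526), scored 55.9. The next 4 were 9699 bp long on chromosome 1 (22835773 to 22845471, score 44.5), 8746 bp on chromosome 18 (4214731 to 4223476, score 63.0), 8438 bp on chromosome 7 (16127602 to 16136039, score 58.8) and 8428 bp on chromosome 2 (2542885 to 2551312, score 46.3). Each of these 5 reached the TSS, and their genes had no promoter peak. Peaks of 3 kb or more made up 3.41% of the members (2.97 to 3.92%) and 2.44% (2.31 to 2.58%) of all peaks. Among the intergenic peaks 3 to 10 kb upstream the share was 1.95% (1.60 to 2.38%). Outer promoter peaks were longer than the members, with an upper length quartile of 1524 bp against 863 bp.

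Most genes had a single near-upstream peak. There was 1 at 4398 genes, 2 at 592 and 3 at 14. Where there were 2, the median gap between them was 449 bp, and the nearer one scored higher at 302 genes (51.0%, 47.0 to 55.0%) and lower at 280 (47.3%, 43.3 to 51.3%). The 2 shares had overlapping intervals. When members separated by less than 500 bp were joined, 268 of the 606 genes with more than 1 member still had more than 1.

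The 14 genes with 3 near-upstream peaks carried mostly short, low-scoring ones. Their members had a median score of 5.98 (range 1.75 to 61.1) and a median length of 375.5 bp. Where 3 separate peaks are centred 1 to 3 kb upstream, each has little room to be long, and score rose with length. Both values thus follow in part from the choice of these genes. All members of 300 to 500 bp had a median score of 7.56. At 10 of the 14 genes, each member scored below the highest score group of the list. A promoter peak was present at 6 of the genes and a peak over the TSS at 9, and the highest-scoring peak was a near-upstream one at 7. The highest was on chromosome 2, where peaks at 18074620 to 18075121 (score 61.1), 18074193 to 18074402 (3.22) and 18073332 to 18073713 (26.2) stood in a row upstream of a promoter peak with a score of 24.6. On chromosome 8, a gene had no promoter peak and no peak over its TSS but members at 11088336 to 11088752 (34.5), 11088954 to 11089451 (49.5) and 11090045 to 11090422 (2.45). In both rows a strong peak stood beside one close to the bottom of the score range.

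**Figure D5:**
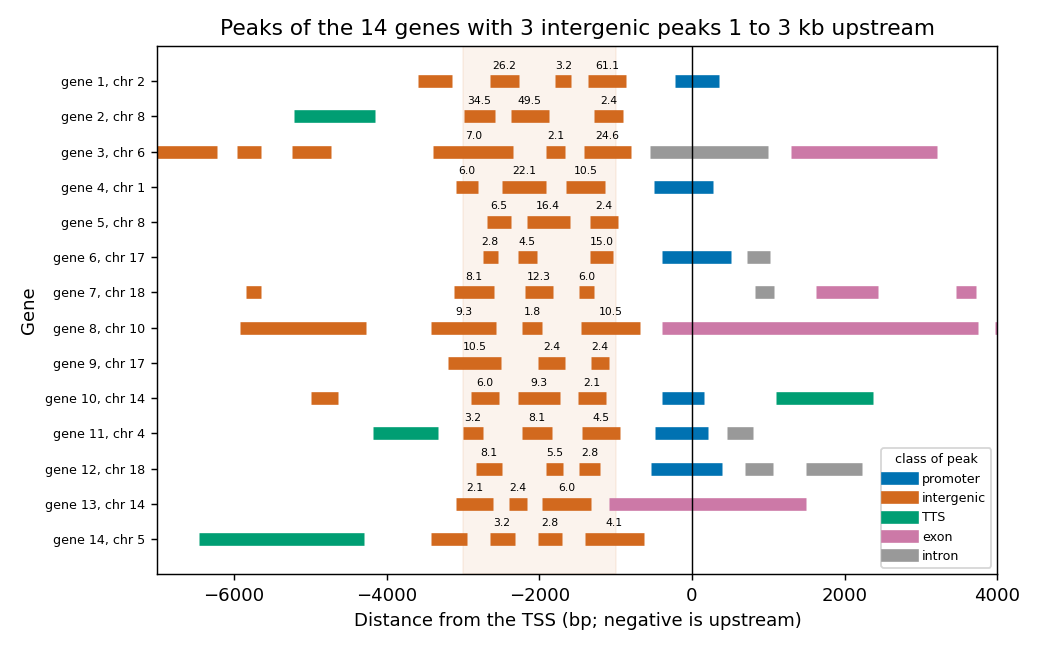
Peaks of the 14 genes with 3 near-upstream intergenic peaks, drawn to scale by distance from the TSS in bp (horizontal axis, negative is upstream, peaks beyond the axis are not shown), 1 gene per line, ordered by the highest member score and coloured by the authors' class; numbers are the scores of the members and the shaded band marks 1 to 3 kb. The first gene has the highest member, at 61.1, and 6 of the 14 have a promoter peak.

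An intergenic peak upstream of a gene may lie between 2 genes that are read away from each other, or between a gene and the end of the one before it. The TSS and strand of 13782 genes could be recovered from the signed distances, and for 5207 members the next recovered TSS on the far side was known. This TSS belonged to a divergent gene at 2728 of them, or 52.4% (51.0 to 53.7%), and to a gene on the same strand at 2479. For intergenic peaks 3 to 10 kb upstream the divergent share was 49.6% (48.1 to 51.0%). Genes without a recovered TSS were skipped, so the far-side gene was often not the true neighbour: its TSS lay at a median of 9648 bp for divergent genes and 12345 bp for the others. With far-side TSSs within 10 kb, the divergent share was 58.6% (56.6 to 60.5%, n = 2423) for members and 56.1% (53.7 to 58.5%, n = 1613) for the farther peaks. Same-strand TSSs of the members lay farther off, so this limit dropped more of them. The limit thus raises the divergent share by construction, and the rise says nothing about the true neighbours.

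Members whose next recovered far-side TSS was divergent had a median score of 11.8 (11.1 to 12.4). Those for which it was on the same strand had 10.5 (9.85 to 11.4). These labels often do not describe the true neighbours. The difference was 1.34 with bounds of -0.38 and 2.53, it was 1.74 within strata of length, and 16 of 19 numbered chromosomes had this direction. A set of 234 members lay within 3 kb of both divergent TSSs, at 208 gene pairs. At 101 of these members both genes had a promoter peak, at 98 only 1 gene did and at 35 neither. Their median score was 12.1 (9.85 to 14.3), with an interval that holds the median of all members.

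Near-upstream intergenic peaks were spread over the genome much as all peaks were. On the 19 numbered chromosomes, which held 94.2% of the members, their share of the chromosome's peaks ran from 10.5% (9.53 to 11.5%) on chromosome 18 to 13.0% (11.7 to 14.5%) on chromosome 11. These intervals did not overlap, but they belong to the lowest and the highest of 19 shares. Median scores of the members ran from 9.22 on chromosome 17 to 14.3 on chromosome 18, where the members were also the longest, with a median of 678.5 bp. The share on the sequence named Un was 11.4% (10.2 to 12.8%). The fullest windows of 1 Mb held 44 members each, on chromosome 7 from 3000001 to 4000000 and on chromosome 16 from 21000001 to 22000000, where they were 15.3% and 13.5% of the peaks. The median over 436 windows with peaks was 9, and 33 windows had no member.

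Genes with ENSRNA identifiers were the nearest gene for 66 members, or 1.17% (0.924 to 1.49%), against 1.44% (1.34 to 1.55%) of all peaks. The median score of these 66 was 7.14 (5.48 to 11.1), and that of the 5558 members nearest to genes with VIT identifiers was 11.1 (10.5 to 11.7). The intervals overlapped.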

How the data were processed

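The submitters' processing notes name BWA, MACS2 and HOMER but neither their roles nor their versions. Settings, build and annotation were not given in the sources used here. The authors deposited, per the file headers, a position, a peak score, an annotation class, a signed distance to the nearest TSS and that gene's identifier for each peak. The scale of the score is not named; it was used to order this list and to set group medians side by side. There are no read counts, so library depth is unknown.

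Length counts both end positions. Shares carry 95% Wilson intervals and medians 95% binomial (order statistic) intervals; bounds of a difference join opposite ends of the 2 intervals and are wider than a 95% interval. Length matching weighted median differences within 10 length strata of the list by the number of members. Score groups were cut at the list's quartiles, with ties kept together. A TSS and strand were recovered where 2 or more peaks of a gene gave 1 position (12847 genes), or, for 935 of 7305 genes with 1 peak, where only 1 of the 2 possible positions left each other peak with its own nearest TSS. The functions were tested on simulated data. No resampling over peaks was run.

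Peaks named by position were the 10 highest-scoring and 5 longest members, those at the borders and, of the 14 genes with 3 members, those of the 2 with the highest member score. The members, lists and comparisons were chosen with earlier results of these data known. Pathway gene counts and motif shares were planned and not run, since names and sequence were not used here. Scripts ran in Python 3.11.15 (scipy 1.17.1, pandas 2.3.3, numpy 2.4.6, and matplotlib 3.10.9 for figures).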

Additional observations from a re-analysis of the deposited data

How the results depend on the processing

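Of 25 alternative values, 14 stayed within the main interval or, in length, kept the sign, and 11 moved. The 3 score differences each had bounds that include 0, and 3 of their 9 alternative values had the other sign. With the highest score group alone, the members' share of the list was 15.0%, the share reaching into the promoter 35.4%, the share whose gene has a promoter peak 22.6% and the divergent share 54.2%; the third counts only promoter peaks of that group, which lowers it by construction. In the lowest score group, the share of the list was 7.05%. Measured from the near edge it was 10.1%. Counting peaks over the TSS as well, 74.1% of the members had a peak at the gene start, against 54.6% with promoter peaks alone. The divergent share was 58.6% with far-side TSSs within 10 kb, a limit that raises it by construction. Within strata of length, the difference from outer promoter peaks was 2.49 in place of -0.62, and that from intergenic peaks 3 to 10 kb upstream -0.02 in place of 0.67. In length, the nearest members were shorter than the farthest by a difference of -11.5 bp, although they scored higher. Joining members under 500 bp apart left 268 of 606 genes with more than 1. Apart from these consequences of construction, the cause was not tested. Numbered chromosomes alone moved none of the 8 values computed with them. The lowest score group, peaks over the TSS and the 10 kb limit were chosen after seeing the data. No paired analysis was possible because there was only 1 library of each kind; for the same reason none could be left out. Library depth is unknown, so its effect on low-scoring peaks was not tested.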
